A study of Mus musculus with 40 samples.

Results

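The ileum that remained after small bowel resection (SBR) was compared with the ileum of sham-operated mice, both given vehicle. The members of the comparison were the 7 of 40 libraries whose titles name ileum with vehicle, 4 from SBR and 3 from sham mice. They were described over the 15772 of 15958 listed genes whose mean log2 TPM reached 1 in the ileum. All animals were wild-type C57BL/6 males operated on at 8 weeks of age. The labels give a resection of 50 to 60% of the small bowel, while the methods of the study state a larger share, so the extent is uncertain. In sham operations the intestine was cut near its end and rejoined, and no segment was removed. Both groups then lived on a liquid diet and received vehicle daily for 7 weeks from 3 weeks after surgery, so the tissue was taken about 10 weeks after the operation. The ileum came from beyond the join. The 4 ileal libraries of SBR mice given WUSTL0717 at 30 mg/kg entered only the gene filter and the estimate of the spread here. WUSTL0717 is a gut-restricted activator of the liver X receptors (LXR). The labels number the libraries of a group and do not say more of their origin, so the p-values measure the spread between these libraries.

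The ileum is the last segment of the small intestine and the site where most bile acids are taken back from the gut lumen. The apical transporter encoded by *Slc10a2* brings them into the enterocyte, the binding protein encoded by *Fabp6* carries them across it, and the exporter encoded by *Slc51a* and *Slc51b* releases them to the blood. Enterocytes also make cholesterol from acetyl-CoA, a pathway under the transcription factor SREBP2, the product of *Srebf2*. When the proximal bowel is removed the remaining segment is known to adapt over weeks, with longer villi and deeper crypts, and it meets food that the lost segment would have absorbed. The question of the comparison was which transcripts of the remaining ileum differed from those of an ileum of normal length at this late time.

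Each value was a log2 TPM (a transcript level scaled by the length of the gene and by the library) as deposited after a batch correction, so a difference of 1 is near a 2-fold change before that correction. The correction also placed 863 values of the 11 ileal libraries below 0, the lowest at -1.34. Differences are given as SBR minus sham with their standard error (SE), and the adjusted p-values are those of limma over all tested genes with the Benjamini-Hochberg method. Among the libraries compared, the TPM of the listed genes summed to between 618212 and 656945. A ribosomal RNA gene model took from 0.534% to 9.88% of TPM, the most in SBR vehicle 2, and mitochondrial transcripts took 1.06 to 7.98%, the most in sham vehicle 1. The number of reads was unknown. The tissue labels fitted the markers: *Slc10a2* lay between 4.42 and 6.98 in the 7 libraries and between 0.55 and 0.88 in the duodenum, while the duodenal factor *Pdx1* was below 0.5 in all 7 and at least 4.26 in the duodenum. The samples were whole tissue, so fewer cells of a type and less RNA per cell cannot be told apart.

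Between SBR and sham ileum, 55 genes passed the test, which is 0.349% of those tested. Of these, 38 were higher after SBR (0.241%) and 17 were lower (0.108%). Most of the calls depended on the WUSTL0717 libraries in the estimate of the spread, as 10 genes passed with the compared groups fitted alone. At an unadjusted p under 0.05, 871 genes were higher (5.52%) and 463 were lower (2.94%). The median difference over all genes was 0.07, and 57.7% of genes had a difference above 0. The 55 genes differed by 1.28 to 4.38 in size, and in each of them all 4 SBR libraries lay on one side of all 3 sham libraries. As the genes were picked by a test on the same 7 libraries, this separation is no separate support. Its share over all tested genes is not given here. Any single gene with such a separation had an exact permutation p of 0.0286 (two-sided), the smallest that 35 splits of 4 against 3 allow. When each of the 7 libraries was left out in turn, 3 of the 55 passed in every fit and 16 in none, and without sham vehicle 2 the count of calls was 3. Among the 16 were *Utp14b*, *Gm26386*, *Tsku*, *Slc9a3*, *Myo7a*, *Rnf125*, *Rnf152*, *Dbp*, *Sema3b*, *Endod1*, *1810065E05Rik*, *Erg28*, *Card9*, *Gpr39* and *Pter*, so that each of these calls rests on all 7 libraries.

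**Figure D1:**
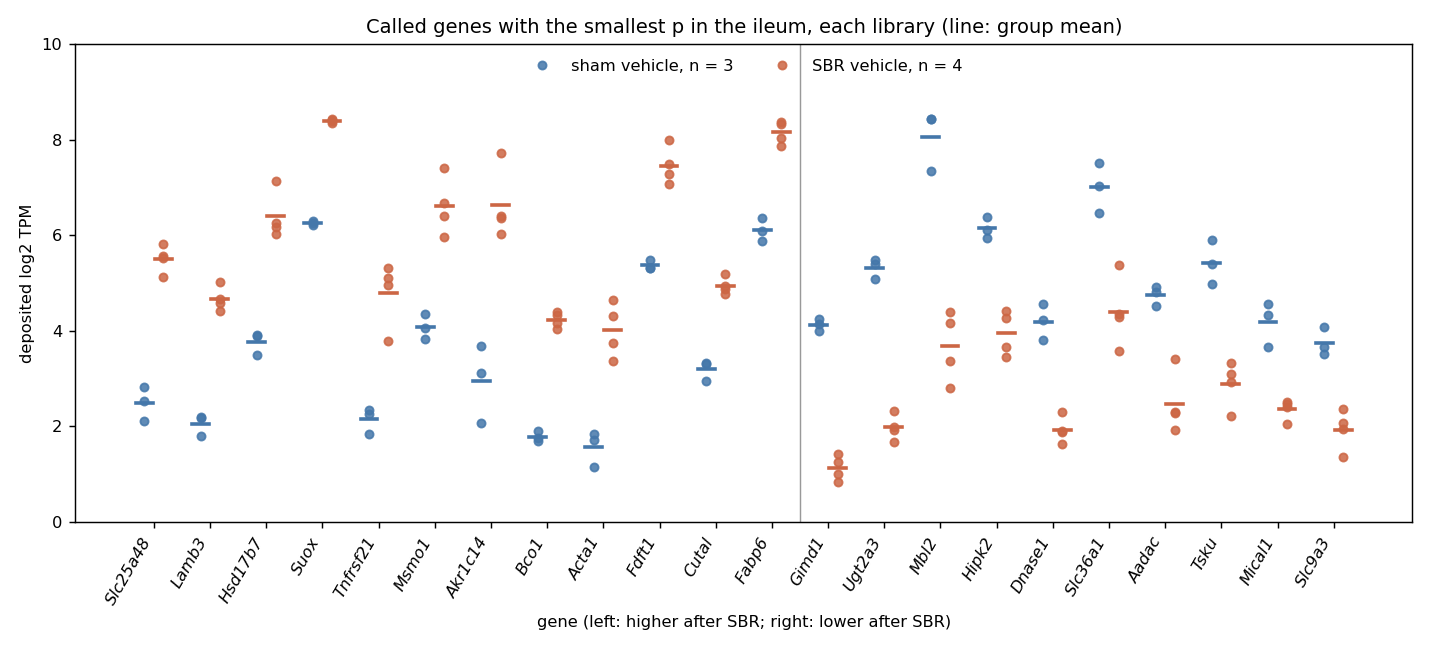
Deposited log2 TPM (vertical axis) of the 12 called genes that rose and the 10 that fell with the smallest p, by library. Each point is 1 library of the sham vehicle (n = 3) or SBR vehicle (n = 4) group and each line the group mean. No gene has overlapping groups, and *Mbl2* spans the widest gap, from 7.34 or more in sham to 4.39 or less after SBR.

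The 3 genes called whichever library was left out belonged to different functions. *Slc25a48*, on chromosome 13 (GRCm38, 56438355 to 56474239, plus strand), encodes a carrier of the inner mitochondrial membrane. Its log2 TPM was 2.11, 2.52 and 2.82 in sham and 5.57, 5.12, 5.52 and 5.83 after SBR. Every SBR library was over 2 units above every sham library, and the difference was 3.02 ± 0.29 (adjusted p = 0.0015). *Lamb3*, on chromosome 1 (193207699 to 193343878, plus strand), encodes the beta3 chain of laminin-332, the anchor of epithelial cells to their basement membrane. It was 2.19, 1.80 and 2.17 in sham and 4.66, 4.41, 4.57 and 5.02 after SBR, with narrow and well separated groups. The difference was 2.61 ± 0.27 (adjusted p = 0.00224). The annotated span of *Lamb3* also holds *Hsd11b1* and *G0s2* on the other strand, and the counting is not stated to use strand. *Gimd1*, on chromosome 3 (132629820 to 132645351, plus strand), encodes a GTPase-like protein related to the GIMAP family. It went the other way, with 4.00, 4.26 and 4.13 in sham against 1.43, 1.25, 1.00 and 0.85 after SBR. Its fall of 3.00 ± 0.26 had the smallest adjusted p of the comparison (0.00105).

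Cholesterol synthesis and uptake was the list with the most genes called. Of its 25 members, all tested, 6 passed and all 6 were higher, 23 were higher at an unadjusted p under 0.05 and 24 had a difference above 0. The median difference of the list was 1.58, a ratio of 2.99 on the linear scale, against 0.07 over all genes. Among those that passed were *Hmgcs1*, *Fdft1*, *Cyp51*, *Msmo1* and *Hsd17b7*, enzymes that act early and late in the pathway. With each of the 7 libraries left out in turn, *Hsd17b7* passed in 6 fits, *Msmo1* in 5, *Fdft1* in 4, *Cyp51* in 2 and *Hmgcs1* in 1. The median of the 25 log2 levels was 5.31, 5.14 and 5.10 in the sham libraries and 6.65, 7.13, 6.81 and 6.25 in the SBR libraries. The groups were apart, with SBR vehicle 2 highest and SBR vehicle 4 lowest of the 4. SBR vehicle 2 also carried the most ribosomal RNA, and the part of this in the result was not tested. Without that library and sham vehicle 1 the list's median was 1.49, 21 members were at an unadjusted p under 0.05 and none passed the test across all genes.

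The promoters of these genes are shown because their members moved together. In the RefSeq promoter table (GRCm38.p6), 17 of the 25 members had an entry, and the 250 bases before the start were searched on both strands for CCAAT, the site that NF-Y binds next to SREBP at many sterol genes. The letters CCAAT or their reverse complement stood in 17 of 17 members, against 39.5% of the 9653 tested genes with an entry and 37.5% of all 27025 genes of the table. They stood in 16 of the 30 genes that rose and have an entry (53.3%) and in 7 of 16 that fell (43.8%). The strict sterol element TCACNCCAC stood in 1 of 17 members, *Hmgcs1*, against 1.29% of the tested genes, and the 2 motifs did not overlap there. A match describes letters and not a bound site. The list's share rests on sequence and on the make-up of the list, and not on the measured differences. It also counts *Npc1l1*, whose difference was below 0. What drove the rise was not tested. The 250 bases before the start of 4 genes that rose are given 5′ to 3′ on the gene's strand, with CCAAT or ATTGG, and in *Hmgcs1* also TCACNCCAC, in capitals.
*Hmgcs1* (chr13:119690101-119690350, plus strand): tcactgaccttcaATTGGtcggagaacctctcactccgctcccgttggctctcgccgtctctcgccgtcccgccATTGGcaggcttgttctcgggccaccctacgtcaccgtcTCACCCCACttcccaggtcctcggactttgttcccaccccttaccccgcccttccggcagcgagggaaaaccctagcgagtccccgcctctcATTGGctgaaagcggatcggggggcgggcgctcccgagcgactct
*Hsd17b7* (chr1:169969206-169969455, minus strand): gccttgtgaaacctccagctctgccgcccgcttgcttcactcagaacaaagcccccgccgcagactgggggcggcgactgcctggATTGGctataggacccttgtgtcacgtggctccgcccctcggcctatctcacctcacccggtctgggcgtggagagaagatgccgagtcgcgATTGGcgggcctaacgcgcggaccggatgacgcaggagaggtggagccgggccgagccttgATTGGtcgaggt
*Msmo1* (chr8:64733579-64733828, minus strand): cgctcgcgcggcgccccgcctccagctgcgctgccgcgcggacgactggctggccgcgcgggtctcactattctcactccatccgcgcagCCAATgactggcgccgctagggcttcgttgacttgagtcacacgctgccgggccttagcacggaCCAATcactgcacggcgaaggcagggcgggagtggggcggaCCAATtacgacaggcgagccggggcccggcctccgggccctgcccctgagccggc
*Cyp51* (chr5:4104698-4104947, minus strand): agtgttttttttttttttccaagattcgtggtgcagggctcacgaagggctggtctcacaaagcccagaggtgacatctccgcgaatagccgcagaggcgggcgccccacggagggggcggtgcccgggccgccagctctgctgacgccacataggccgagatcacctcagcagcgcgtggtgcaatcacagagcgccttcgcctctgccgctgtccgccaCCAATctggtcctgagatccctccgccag
In *Hmgcs1* the 3 copies began 237, 176 and 45 bases before the start and the sterol element 137 bases before it. *Hsd17b7* held copies at 165, 73 and 12 bases, *Msmo1* at 160, 96 and 55 bases, and *Cyp51* a single one at 29 bases.

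*Hmgcs1*, an early enzyme of the pathway, was 6.51, 6.26 and 5.72 in sham and 8.46, 9.20, 8.40 and 7.60 after SBR. The lowest SBR library was thus more than 1 unit above the highest sham library, and the difference was 2.25 ± 0.39 (adjusted p = 0.0356). The gene model overlaps a non-coding gene, *Gm48342*, whose reads may be shared. Other early enzymes, *Pmvk* (1.92), *Mvk* (1.51), *Mvd* (1.37), *Idi1* (1.62) and *Fdps* (1.63), had positive differences below the threshold of the test.

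Squalene and the sterol ring are made by the later enzymes, where most of the calls lay. *Fdft1*, squalene synthase, was 5.31, 5.49 and 5.31 in sham and 7.27, 7.98, 7.49 and 7.07 after SBR. The sham libraries lay within 0.2 of each other and the rise was 2.09 ± 0.29 (adjusted p = 0.0123). *Sqle*, the squalene epoxidase, and *Lss*, which closes the ring, differed by 1.15 (adjusted p = 0.142) and 1.75 (adjusted p = 0.0663). *Cyp51*, the lanosterol demethylase, was 5.54, 5.43 and 4.98 in sham and 7.91, 8.59, 7.68 and 7.11 after SBR, a rise of 2.50 ± 0.38 (adjusted p = 0.0159). *Msmo1*, the sterol C4 methyl oxidase, was 4.06, 4.35 and 3.83 in sham and 6.41, 7.41, 6.67 and 5.97 after SBR. The rise was 2.53 ± 0.33 (adjusted p = 0.0116). *Hsd17b7*, the ketosteroid reductase of the same demethylation complex, was 3.49, 3.90 and 3.92 in sham and 6.17, 7.13, 6.03 and 6.25 after SBR, and rose by 2.63 ± 0.31 (adjusted p = 0.00696). All 3 enzymes were highest in SBR vehicle 2. *Erg28*, the scaffold of that complex and no member of the list, was 3.91, 4.62 and 4.17 in sham and 5.49, 5.80, 5.57 and 5.59 after SBR, and rose by 1.38 ± 0.25 (adjusted p = 0.0456).

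The regulators of the pathway followed the enzymes in sign. *Insig1*, the retention protein of the SREBP complex and itself a target, differed by 2.39 ± 0.52 (adjusted p = 0.0964) and *Srebf2* by 1.32 ± 0.32 (adjusted p = 0.131). *Npc1l1*, the apical importer of dietary cholesterol, was the one member with a value below 0, at -0.29.

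**Figure D2:**
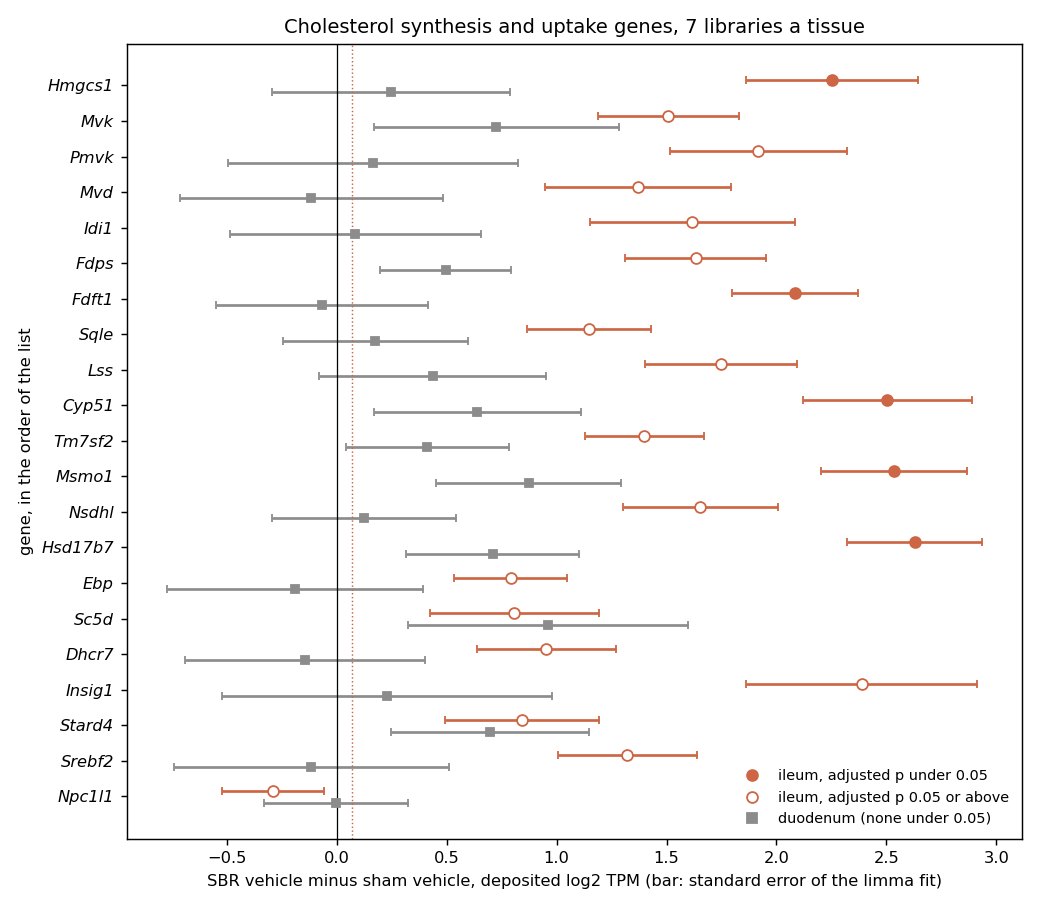
Log2 difference, SBR vehicle minus sham vehicle, of cholesterol synthesis and uptake genes in the ileum (circles, filled where the adjusted p passed) and in the duodenum (squares), from 4 and 3 libraries in each tissue. Bars are the standard error of the limma fit, and the dotted line is the median of all genes in the ileum, 0.07. In the ileum every point shown but that of *Npc1l1* lies right of 0.

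Other lipid lists did not pass in any member. Of 15 genes of fatty acid synthesis 13 were higher and 7 were so at an unadjusted p under 0.05, with a median of 1.32. *Acsl3*, which activates long-chain fatty acids, was 2.50, 2.30 and 2.71 in sham and 4.01, 3.62, 3.99 and 4.36 after SBR. Its groups did not overlap, and its difference of 1.49 ± 0.30 had an adjusted p of 0.0741. *Utp14b*, a ribosome biogenesis gene annotated inside *Acsl3*, was called at 1.56 ± 0.25 (adjusted p = 0.022), and the reads of the pair may not be separable. *Scd1*, the delta-9 desaturase, differed by 1.80 (adjusted p = 0.136), *Fasn* by 1.42 (adjusted p = 0.609) and *Srebf1* by -0.15 (adjusted p = 0.994).

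Of 35 PPAR targets and fatty acid oxidation genes 29 were higher, 12 at an unadjusted p under 0.05, while 2 were lower at that level, and the median was 0.64. *Acads*, the short-chain acyl-CoA dehydrogenase, was 4.31, 5.58 and 5.22 in sham and 7.42, 6.60, 7.04 and 7.87 after SBR (2.19 ± 0.45, adjusted p = 0.0741). *Cpt1a*, the entry enzyme of mitochondrial oxidation, was highest in SBR vehicle 4, at 8.82 against 6.18 to 7.10 in the other SBR libraries (1.91, adjusted p = 0.389). *Pparg* differed by 1.56 (adjusted p = 0.0865) and *Ppara* by 0.27.

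Triglyceride synthesis and chylomicron assembly was split, with 11 of 26 members higher, 15 lower, 4 at an unadjusted p under 0.05 each way and a median of -0.23. *Plin2*, the coat protein of lipid droplets, was 5.21, 4.81 and 4.29 in sham and 5.86, 6.31, 6.49 and 6.75 after SBR (1.58 ± 0.35, adjusted p = 0.0964). *Mttp*, which loads lipid onto nascent lipoproteins, differed by -0.65 and *Apoc3* by -1.13. LXR targets and sterol efflux genes had a median of -0.03 over 18 members, and 2 were lower at an unadjusted p under 0.05. These were *Soat2*, which esterifies cholesterol, at 8.20, 8.54 and 8.59 in sham and 6.68, 6.88, 5.85 and 7.07 after SBR (-1.82 ± 0.48, adjusted p = 0.173), and the efflux pump gene *Abca1* at 5.60, 6.22 and 6.21 against 4.85, 4.07, 4.78 and 4.90 (-1.36 ± 0.37, adjusted p = 0.198).

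Of 8 tested genes of ileal bile acid handling 2 rose, *Slc10a2* and *Fabp6*. *Slc10a2*, on chromosome 8 (5083219 to 5105351, minus strand), was 5.17, 4.87 and 4.42 in sham and 6.89, 6.74, 6.76 and 6.98 after SBR. The SBR libraries lay within 0.25 of each other and the rise was 2.02 ± 0.30 (adjusted p = 0.0145). *Fabp6*, on chromosome 11 (43596049 to 43601540, minus strand), was 6.35, 5.87 and 6.08 in sham and 8.33, 7.88, 8.37 and 8.03 after SBR, with a rise of 2.05 ± 0.29 (adjusted p = 0.0137). On the linear scale the ratios were 4.07 for *Slc10a2* and 4.14 for *Fabp6*. *Nr1h4*, the bile acid receptor FXR, was 6.01, 6.13 and 6.26 in sham and 8.19, 7.87, 7.88 and 8.59 after SBR. Its groups were over 1 unit apart, and the difference of 2.00 ± 0.40 did not pass (adjusted p = 0.067). The exporter genes *Slc51a* and *Slc51b* differed by 0.69 (adjusted p = 0.306) and 0.35 (adjusted p = 0.828). Over the list 7 members were higher, 4 at an unadjusted p under 0.05, and the median was 0.61, and *Fgf15* was not analysed here.

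Genes that mark the distal ileum and colon had a median of 0.59 over 15 members, of which 8 were higher at an unadjusted p under 0.05 and 2, *Slc10a2* and *Fabp6*, passed. *Hoxb6*, a posterior patterning gene, differed by 1.54 (adjusted p = 0.112) and the peptide hormone gene *Pyy* by 0.97 (adjusted p = 0.123). Genes of duodenal and jejunal identity had a median of -0.28 over 15 members, 4 of them lower at an unadjusted p under 0.05 and none called. *Lct*, the lactase of the jejunum, was 4.21, 4.55 and 4.88 in sham and 2.18, 0.98, 0.07 and 1.60 after SBR (-3.34 ± 0.74, adjusted p = 0.0981). The groups were over 2 units apart. The jejunal factor gene *Gata4* was 4.68, 5.05 and 4.83 in sham and spread from 1.42 to 3.77 after SBR (-2.15 ± 0.79, adjusted p = 0.407), and the incretin gene *Gip* differed by -1.06 (adjusted p = 0.118).

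*Sqor*, *Ethe1* and *Suox*, whose products oxidise sulfide, were 3 of the 38 genes that rose. They were grouped after their values were seen and are not one of the lists, so no count stands behind the group. With each of the 7 libraries left out in turn, *Suox* passed in 6 fits, *Ethe1* in 2 and *Sqor* in 1. In the mitochondrion sulfide is oxidised by the product of *Sqor*, the resulting persulfide by that of *Ethe1*, and sulfite by that of *Suox*. *Sqor* was 4.21, 4.70 and 4.91 in sham and 6.86, 6.44, 6.94 and 6.75 after SBR (2.14 ± 0.34, adjusted p = 0.0181). *Ethe1* was 4.72, 4.32 and 3.81 in sham and 6.65, 6.53, 6.50 and 5.80 after SBR (2.09 ± 0.31, adjusted p = 0.0151). *Suox*, on chromosome 10 (128669894 to 128674073, minus strand), was 6.31, 6.26 and 6.21 in sham and 8.40, 8.35, 8.44 and 8.39 after SBR. Both groups spanned 0.1 or less, and the rise was 2.13 ± 0.26 (adjusted p = 0.00744). The sulfurtransferase genes *Tst* and *Mpst* were higher in every SBR library and differed by 1.74 (adjusted p = 0.0741) and 1.51 (adjusted p = 0.0561). Of the enzymes that release sulfide from cysteine, *Cth* differed by 1.84 (adjusted p = 0.112) and *Cbs* by 0.89 (adjusted p = 0.596). *Selenbp2* rose by 1.81 ± 0.30 (adjusted p = 0.025), but reads may be shared with its near copy *Selenbp1*, the methanethiol oxidase gene, which differed by 1.54 with overlapping groups (adjusted p = 0.312).

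Among 28 salt and water transport genes, whose median was 0.12, 1 rose and 1 fell. *Slc13a1*, the sodium-sulfate cotransporter gene on chromosome 6, was 1.52, 1.63 and 1.85 in sham and 3.41, 3.14, 3.81 and 3.91 after SBR, and rose by 1.90 ± 0.29 (adjusted p = 0.0151). The called genes *Gm20706* (2.05) and *Gm26386* (2.02) lie within its span, so the 3 calls may be 1 signal. *Slc9a3*, the apical sodium-proton exchanger NHE3, was 3.51, 3.66 and 4.08 in sham and 2.36, 2.07, 1.36 and 1.95 after SBR. It fell by 1.81 ± 0.31 (adjusted p = 0.0316), and the call was lost whenever any 1 library was left out.

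**Figure D3:**
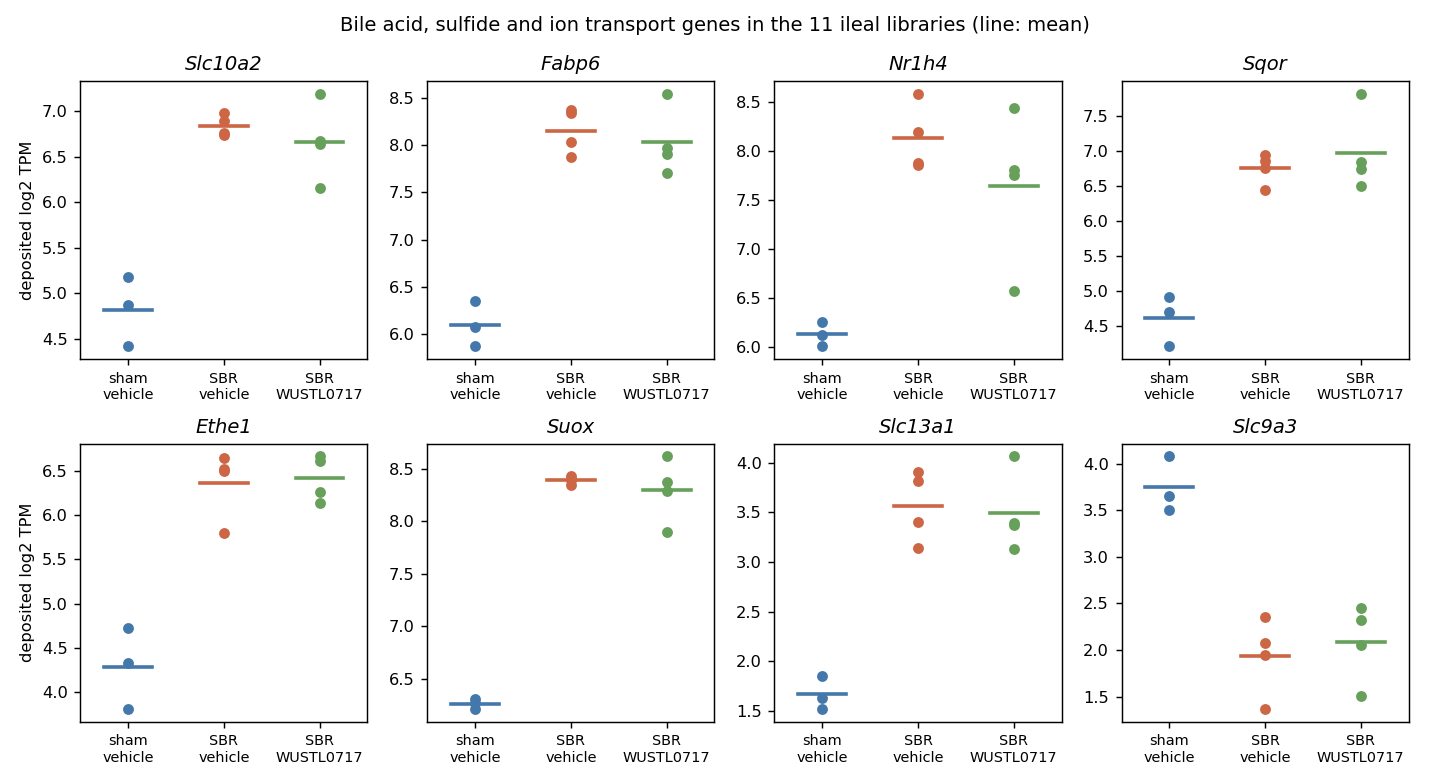
Deposited log2 TPM (vertical axis, with a range of its own in each panel) of 8 bile acid, sulfide oxidation and ion transport genes in the 11 ileal libraries. Each point is 1 library of the sham vehicle (n = 3), SBR vehicle (n = 4) or SBR with WUSTL0717 (n = 4) group and each line the group mean. *Suox* lay between 6.21 and 6.31 in sham and between 8.35 and 8.44 after SBR.

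Transporters of sugars, peptides and amino acids were divided in sign, with a median of -0.04 over 26 members, 13 higher and 13 lower. *Slc36a1*, the proton-coupled carrier of small amino acids, was 6.47, 7.03 and 7.51 in sham and 4.29, 4.36, 3.57 and 5.38 after SBR, and fell by 2.60 ± 0.40 (adjusted p = 0.0159). It was the one member called, and 5 were lower at an unadjusted p under 0.05. *Slc7a8*, a basolateral exchanger of neutral amino acids, was 5.50, 5.85 and 5.62 in sham and 3.61, 2.98, 2.30 and 4.28 after SBR (-2.36 ± 0.45, adjusted p = 0.0587). *Slc23a1*, the vitamin C transporter, lay at 6.31 to 6.49 in sham and 3.02 to 4.65 after SBR (-2.62 ± 0.60, adjusted p = 0.113). The main sugar and peptide carriers showed smaller differences, -0.40 for *Slc5a1*, -0.71 for *Slc2a2* and -0.33 for *Slc15a1*. Of 13 iron, calcium, zinc and phosphate genes 6 were higher at an unadjusted p under 0.05 with none called, among them the calcium pump gene *Atp2b1* (1.77, adjusted p = 0.0916) and the iron exporter gene *Slc40a1* (1.48, adjusted p = 0.142).

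The genes that rose included 5 enzymes of carotenoid, steroid and lipid metabolism, set side by side after their values were seen. *Bco1*, which cleaves beta-carotene to retinal, was 1.90, 1.75 and 1.69 in sham and 4.39, 4.04, 4.34 and 4.17 after SBR, a rise of 2.45 ± 0.33 (adjusted p = 0.0123). It was the one call of 17 retinoid genes, whose median was 0.01. *Akr1c14*, a 3-alpha-hydroxysteroid dehydrogenase, was 3.68, 3.13 and 2.07 in sham and 6.40, 6.03, 6.36 and 7.71 after SBR, and at 3.67 ± 0.49 (adjusted p = 0.0118) it rose most of the 38. *Hsd3b3*, of the 3-beta-hydroxysteroid dehydrogenase family, was 1.31, 1.40 and 1.23 in sham and 4.27, 3.19, 4.53 and 4.89 after SBR (2.91 ± 0.44, adjusted p = 0.0151). Both belong to families of near copies, among which the counting could split reads. *Acox2*, the peroxisomal oxidase of branched chains and bile acid side chains, was 3.04, 2.71 and 3.53 in sham and 5.83, 5.04, 5.35 and 6.64 after SBR (2.62 ± 0.38, adjusted p = 0.0145). *Abhd6*, a monoacylglycerol hydrolase, rose by 2.34 ± 0.37 (adjusted p = 0.0181).

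*Ugt2a3*, a glucuronosyltransferase, was the one call of 16 genes of its list, of which 7 were higher and 9 lower with a median of -0.07. It was 5.39, 5.48 and 5.09 in sham and 2.33, 1.68, 1.93 and 1.99 after SBR. All 4 SBR libraries were over 2.5 units below sham, and the fall was 3.34 ± 0.42 (adjusted p = 0.0111). Its family shares sequence, and 2 relatives differed by 1.25 (*Ugt2b5*) and -1.53 (*Ugt2b1*). *Aadac*, arylacetamide deacetylase and a member of none of the lists, was 4.80, 4.92 and 4.52 in sham and 3.40, 1.92, 2.28 and 2.30 after SBR (-2.27 ± 0.36, adjusted p = 0.0181). Neither cytochrome P450 families 2 and 3 nor the carboxylesterases and transferases held a call. *Abcb1a*, the P-glycoprotein drug pump, differed by 2.01 (adjusted p = 0.0717) and the carboxylesterase gene *Ces2c* by 1.36 (adjusted p = 0.0797).

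At the cell border, *Cldn2*, which forms a paracellular channel for sodium and water, was 3.62, 3.62 and 4.09 in sham and 6.77, 6.78, 7.40 and 7.67 after SBR. The rise of 3.38 ± 0.51 (adjusted p = 0.0151) was the one call of 20 tight junction genes, whose median was 0.25, and *Cldn15*, the other sodium channel claudin, differed by -0.23. *Lamb3* was the one call of 19 basement membrane genes, whose median was 0.58. *Lama3*, of the same laminin, differed by 0.19 and *Lama1* by 1.30 (adjusted p = 0.0757). *Sdc1*, a heparan sulfate proteoglycan of epithelial cells and also a plasma cell marker, was 5.25, 5.78 and 6.00 in sham and 8.00, 8.14, 7.75 and 7.24 after SBR (2.11 ± 0.33, adjusted p = 0.0181). Of the 13 plasma cell genes the others were not called and 10 were lower, with a median of -0.42. *Tmigd1*, an epithelial adhesion protein, rose by 1.60 ± 0.24 (adjusted p = 0.0151).

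The other genes that rose had varied roles. *Tnfrsf21*, a death receptor, was 2.25, 1.85 and 2.34 in sham and 5.10, 5.31, 4.96 and 3.78 after SBR (2.64 ± 0.34, adjusted p = 0.0116). *Plscr1*, a phospholipid scramblase, was 2.65, 3.82 and 4.10 in sham and 6.25, 6.53, 5.70 and 6.76 after SBR (2.79 ± 0.41, adjusted p = 0.0145). *Acta1*, named for skeletal muscle actin, was 1.84, 1.16 and 1.72 in sham and 3.37, 4.30, 3.75 and 4.64 after SBR (2.44 ± 0.33, adjusted p = 0.0123). None of 22 smooth muscle genes was called or at an unadjusted p under 0.05, but 21 had a difference above 0, against 57.7% of all genes. Their median was 0.35, and 0.13 to 0.90 with a library left out. Their summed level ran from 8.44 to 10.29 in sham and from 9.18 to 10.18 after SBR. The part of this shift in the rise of *Acta1* was not tested. Smaller rises were those of *Sgk2* (2.42), *Cutal* (1.74), *Sema3b* (1.58), *Rnf152* (1.56), *Endod1* (1.40) and *Card9* (1.28).

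*Mbl2*, mannose-binding lectin, had the largest difference of the 55. It was 8.42, 8.43 and 7.34 in sham and 3.38, 4.39, 4.17 and 2.80 after SBR, a fall of 4.38 ± 0.63 (adjusted p = 0.0145). Sham was 20.8 times SBR on the linear scale, and *Mbl2* was the one call of 18 antimicrobial and defence genes. *Hipk2*, a nuclear kinase, was 5.94, 6.37 and 6.12 in sham and 4.28, 3.65, 3.45 and 4.42 after SBR (-2.19 ± 0.32, adjusted p = 0.0145). *Dnase1*, a secreted nuclease, was 3.80, 4.24 and 4.55 in sham and 1.64, 2.30, 1.88 and 1.91 after SBR (-2.26 ± 0.33, adjusted p = 0.0145). The groups of both genes were more than 1 unit apart. *Tsku*, a small secreted leucine-rich proteoglycan, was 5.40, 5.90 and 4.97 in sham and 3.34, 2.21, 2.92 and 3.10 after SBR (-2.53 ± 0.42, adjusted p = 0.0282). The other named falls were those of *Creb3l2* (-2.46), *Pter* (-1.98), *Mical1* (-1.82), *Gpr39* (-1.59) and *Myo7a* (-1.46), and that of *Rnf125*, a ubiquitin ligase, which lay between 6.20 and 7.10 in sham and between 4.54 and 4.87 after SBR. *Il33*, an epithelial alarmin, was lower in every SBR library without passing the test (-1.48, adjusted p = 0.0631).

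The output of the circadian clock was the last list with a call. *Dbp*, a clock-driven transcription factor, was 2.71, 3.62 and 2.35 in sham and 5.47, 5.48, 5.42 and 6.91 after SBR, a rise of 2.93 ± 0.53 (adjusted p = 0.0438). At an unadjusted p under 0.05, 8 of 19 clock genes were higher and 1 lower, and the list had a median of 0.86. The relatives and targets *Tef* (2.29, adjusted p = 0.0882), *Per3* (2.03, adjusted p = 0.312) and *Ciart* (1.77, adjusted p = 0.235) were higher in every SBR library than in any sham library, and *Arntl* was lower in every one (-0.79, adjusted p = 0.346). In the duodenum the same direction was seen, with differences of 3.16 for *Dbp*, 3.06 for *Tef* and -1.72 for *Arntl*. The hour at which tissue was taken was not given in the sources used here, and its part in these values was not tested.

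No marker list of crypt cells held a call. None of 24 stem cell genes, 31 cell cycle genes or 19 Paneth cell genes was at an unadjusted p under 0.05, and their medians were 0.11, -0.01 and -0.09; without SBR vehicle 2 and sham vehicle 1 the medians were 0.20, 0.10 and 0.21. *Lgr5*, the stem cell receptor, differed by 0.30, and the proliferation markers *Mki67* and *Pcna* by -0.07 and -0.44, the first of which changed sign when 1 library was left out. Goblet cell genes had a median of 0.32 over 18 members, with 4 higher at an unadjusted p under 0.05 and none called; the mucin gene *Muc2* differed by 0.29 and *Tff3* by 0.97 (adjusted p = 0.274). Repair and fetal-like genes had a median of 0.67 over 20 members and 5 higher at that level, such as *Krt23* (1.95, adjusted p = 0.191).

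No member of the marker lists of other cell types was called apart from *Sdc1*. All 11 tested B cell genes were lower after SBR, with a median of -0.85 and summed levels of 5.34 to 7.98 in sham and 4.33 to 7.69 after SBR. All 16 T cell genes were lower as well, with a median of -0.39 and sums of 6.63 to 7.18 against 5.81 to 7.06. All 19 endothelial genes were higher, with a median of 0.42, 4 at an unadjusted p under 0.05 and sums of 7.89 to 8.59 against 8.48 to 9.04. Of 30 collagen and matrix genes 27 were higher, with a median of 0.58. Red blood cell genes (5) had a median of -1.63 and ranged most within a group, with sums of 6.54 to 6.94 in sham and 3.24 to 8.65 after SBR. The part of these shifts in the other results was not tested. The pancreatic genes *Cela3b* and *Pnlip* were below 0 in all 7 ileal libraries.

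**Figure D4:**
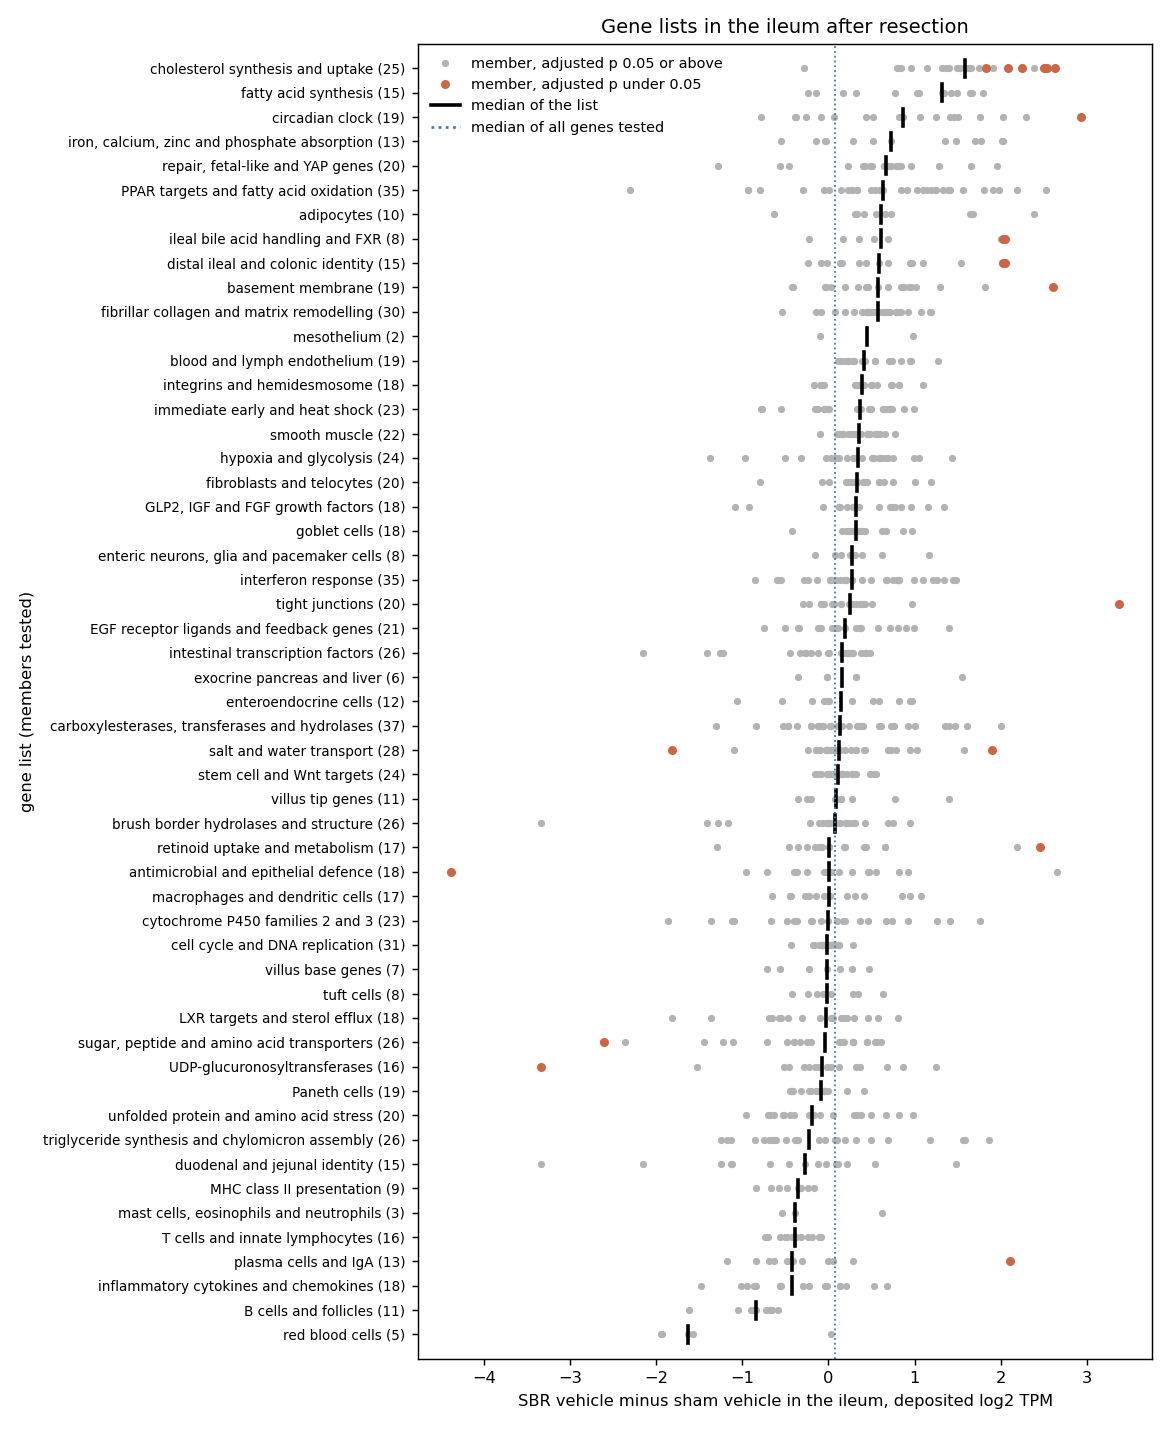
Log2 difference between SBR and sham ileum (horizontal axis) for every tested member of the 53 gene lists. Points are genes, coloured where the adjusted p passed, the black bar of each list is its median and the dotted line is the median of all genes, 0.07. Cholesterol synthesis and uptake had the highest median, 1.58.

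The duodenum of mice with the same operations was tested in the same way, and the labels do not say whether it came from the same mice. With 4 SBR and 3 sham vehicle libraries, none of 15093 genes passed by limma (0%), while 2426 were at an unadjusted p under 0.05, 1911 of them lower. Of the genes that rose in the ileum 32 were tested there and 21 had a duodenal difference above 0, as had 30.0% of all genes; of those that fell 16 were tested and 10 had a difference below 0. A test of the difference between the effects in ileum and duodenum, over all 22 intestinal libraries, called 12 of 15923 genes (0.0754%). The median of that difference was 0.44 over all genes, so a small positive value was usual. At an unadjusted p under 0.05 the ileal effect was the higher in 11.2% of genes and the lower in 2.57%. The duodenal libraries also varied in pancreatic transcripts, with *Cela3b* from 1.55 to 6.87, and the part of this in the duodenal values was not tested.

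Of those 12, 8 were genes that had passed in the ileum. *Slc25a48* had the smallest adjusted p, with an ileal effect higher by 3.28 (adjusted p = 0.000996). In the duodenum it was under the filter, at 0.90 to 1.28 in sham and 0.46 to 1.21 after SBR. The value thus mostly restates the ileal rise of 3.02. *Suox* was higher by 2.99 (adjusted p = 0.019), since its duodenal difference was -0.85. *Bco1* (2.46, adjusted p = 0.0277), *Acta1* (2.34, adjusted p = 0.0434) and *Cutal* (2.11, adjusted p = 0.0434) were also higher. *Acta1* too was under the filter in the duodenum, at 0.69 to 1.01 in sham and 0.17 to 1.26 after SBR. *Gimd1*, *Ugt2a3* and *Tsku* fell in the ileum and differed from the duodenum by -2.84 (adjusted p = 0.0169), -3.64 (adjusted p = 0.0277) and -3.43 (adjusted p = 0.0277). *Gpat3*, which starts glycerolipid synthesis, was not called in the ileum and had the opposite signs in the 2 segments. It was 4.95, 5.01 and 4.55 in sham ileum and 4.49, 4.60, 3.79 and 3.96 after SBR, while in the duodenum it was 1.24, 2.40 and 0.92 in sham and 4.11, 3.47, 4.78 and 3.77 after SBR (-3.14, adjusted p = 0.019). *Ubd*, a ubiquitin-like modifier gene, was 5.36, 5.08 and 5.40 in sham ileum and 1.61, 3.48, 5.09 and 3.70 after SBR, and in the duodenum it was at most 1.27 in sham and at least 3.38 after SBR (-5.46, adjusted p = 0.0277). *Nudt5* differed by -2.40 (adjusted p = 0.0277) and *Gm34777* by -2.47 (adjusted p = 0.0315).

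The cholesterol list had a median of 0.29 in the duodenum, where 19 of 25 members had a difference above 0. In the test of the difference 11 members were higher in the ileum at an unadjusted p under 0.05 and none passed over all genes. Triglyceride synthesis and chylomicron genes went the other way, with 14 of 26 members lower in the ileum at that level, of which *Gpat3* was called. By contrast, *Acox2* (2.89), *Abhd6* (1.97), *Sgk2* (2.35) and *Dbp* (3.16) had duodenal differences near their ileal ones of 2.62, 2.34, 2.42 and 2.93. The duodenal value passed in none of them after adjustment, and the differences between segments were -0.23 ± 0.79 for *Dbp*, -0.27 ± 0.59 for *Acox2*, 0.37 ± 0.53 for *Abhd6* and 0.07 ± 0.59 for *Sgk2*.

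**Figure D5:**
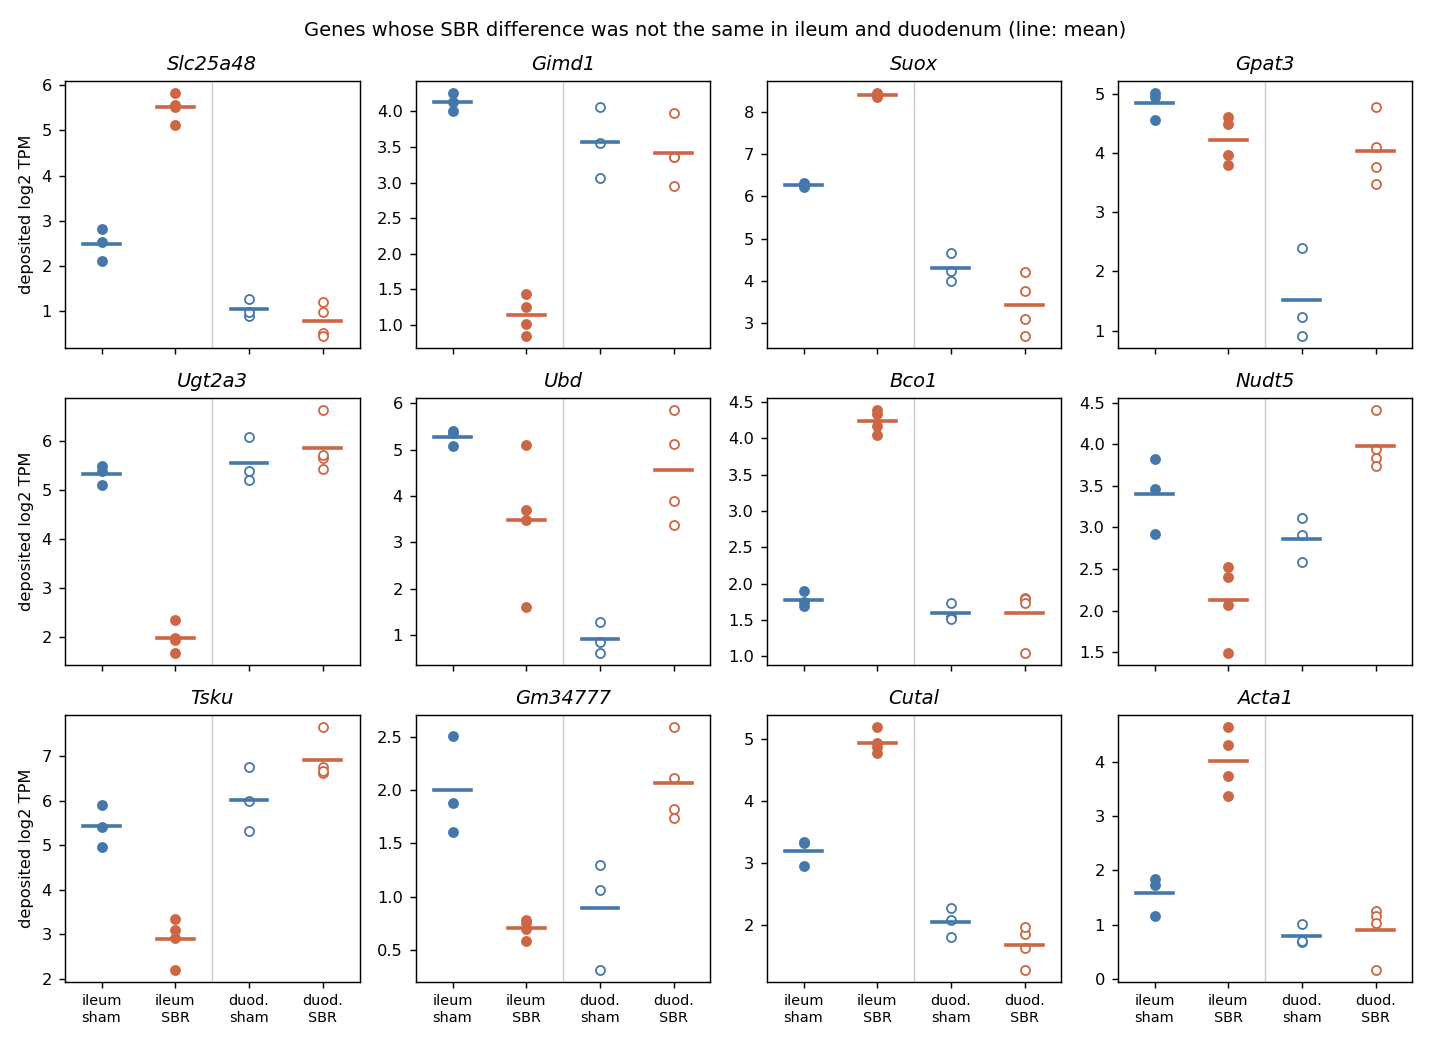
Deposited log2 TPM (vertical axis, with a range of its own in each panel) of the 12 genes called in the test of the difference between segments. Each point is 1 vehicle library of ileum (filled) or duodenum (open), with 3 sham and 4 SBR libraries in each, and each line the group mean. *Suox* was separated by operation in the ileum alone, while *Gpat3* was separated in the duodenum alone.

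The SBR libraries of mice given WUSTL0717 shared the sham libraries as their reference, so their values stand beside those of vehicle and are no separate evidence. All 38 genes that rose had a mean above sham in them and all 17 that fell had a mean below it. For *Suox* the difference from sham was 2.04 with WUSTL0717 and 2.13 with vehicle, and for *Slc10a2* 1.85 and 2.02. For *Gimd1* the values were -3.29 and -3.00, and for *Mbl2* -4.44 and -4.38. Other called genes lay further apart, such as *Aadac* (-0.74 and -2.27), *Tsku* (-1.03 and -2.53) and *Utp14b* (3.24 and 1.56). Of the 55 genes, 47 passed in the WUSTL0717 group against sham, where 343 of all 15772 tested genes passed. The median difference of that group from sham over all genes was 0.07.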

How the data were processed

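The authors removed ribosomal RNA with an RNase H method, primed cDNA with random hexamers, sequenced it in pairs and aligned it with STAR to the Ensembl release 101 assembly (GRCm38). They counted uniquely aligned reads per gene with featureCounts and computed TPM. The deposited values are log2 TPM of 40 libraries, as the authors corrected them with ComBat between 2 batches, which the labels give as intestine and liver. That step also rescales the spread within a batch and gives values below 0, so log2 differences are not exact log2 fold changes. The constant added before the log was not given in the sources used here, nor was the strand setting. Read totals were not used here, so depth is unknown and no counting interval is given.

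Groups came from the titles. Genes with a mean of at least 1 over the 11 ileal libraries were fitted with limma 3.58.1 (R 4.3.3, variance trend) over the 3 ileal groups, and the sham-to-SBR contrast in vehicle was tested with the Benjamini-Hochberg method at 0.05. The difference between segments was an interaction contrast over 22 intestinal libraries. Single values had an exact two-sided permutation test (Python 3.11.15). On simulated data with known changes of a single size the steps recovered 68.5% of changed genes for the ileum and 30.5% for the difference. The simulated noise was independent between genes and held no library-wide shifts, so these shares hold for that size and setting only. Linear ratios were the antilog of the log2 difference with no constant taken out, while summed TPM took the constant to be 1. The alternatives were other filters, constants, scalings, library weights, a replicate block, a fit without the treated group, a two-sample test and each library left out. Named genes were those that passed, the defining and leading members of 53 lists and those called in the difference, some of which are not reported here. The members, the lists and the comparison were chosen with earlier results of these data known. Gene positions are from GENCODE M21 and promoters from RefSeq.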

Additional observations from a re-analysis of the deposited data

Results flagged for a closer look

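In 133 named genes the 4 SBR vehicle libraries were examined for one that stood far from the rest of its group (by Dixon's ratio), which chance gives in about 1 of 20 groups, and 10 genes had such a library. SBR vehicle 4 was the highest library for *Dbp*, at 6.91, and stood apart for *Mvd* at 5.61, *Srebf1* at 4.96 and *Areg* at 1.22. SBR vehicle 2 stood apart for *Tmigd1* at 5.21 and *Abca1* at 4.07. SBR vehicle 1 stood apart for *Utp14b* at 3.41, *Pyy* at 4.17 and *Muc2* at 6.02, and SBR vehicle 3 for *Npc1l1* at 4.46.

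The effect of SBR differed between ileum and duodenum in 12 genes (limma, interaction contrast). The ileal effect was the higher for *Slc25a48* (3.28, adjusted p = 0.000996), *Suox* (2.99, adjusted p = 0.019), *Bco1* (2.46, adjusted p = 0.0277), *Acta1* (2.34, adjusted p = 0.0434) and *Cutal* (2.11, adjusted p = 0.0434). Of these, *Slc25a48* and *Acta1* were under the filter in the duodenum. It was the lower for *Ubd* (-5.46, adjusted p = 0.0277), *Ugt2a3* (-3.64, adjusted p = 0.0277), *Tsku* (-3.43, adjusted p = 0.0277), *Gpat3* (-3.14, adjusted p = 0.019), *Gimd1* (-2.84, adjusted p = 0.0169), *Gm34777* (-2.47, adjusted p = 0.0315) and *Nudt5* (-2.40, adjusted p = 0.0277).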

How the results depend on the processing

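The count of 55 genes changed with several settings. It was 10 with the compared groups fitted alone, 5 with an unmoderated two-sample test, 279 with library weights, 92 after quantile normalization and 683 for an unadjusted p under 0.05 with at least a 2-fold change. With each library left out in turn it ranged from 3 (without sham vehicle 2) to 38 (without SBR vehicle 4), with 14 without SBR vehicle 1, 29 without SBR vehicle 2, 18 without SBR vehicle 3, 18 without sham vehicle 1 and 13 without sham vehicle 3. Without SBR vehicle 2 and sham vehicle 1 it was 3, a setting added once the data had been seen. The other filters, constants, centring and trend settings gave 54 to 74 genes. With a constant of 5 in place of 1 the higher share of calls was 53.7%, against 69.1%. The cause of these shifts was not tested. The count of 12 for the difference from the duodenum was 4 with a filter at 3, 60 after centring, 1989 with library weights, 22 with a constant of 5, 78 after quantile normalization and 1 to 229 with a library left out, the highest without duodenum SBR vehicle 1 and the lowest without ileum SBR vehicle 4, sham vehicle 1 or sham vehicle 2. No called gene reported here changed sign under any of these settings. Among genes that did not pass, signs turned for *Apoa4* (0.08; -0.56 to 0.87 with a library left out, -0.0775 after quantile normalization, -0.23 without both libraries), *Mki67* (-0.07; -0.27 to 0.0791, and 0.0773 without both), *Ppara* (0.27; -0.19 to 0.77) and *Srebf1* (-0.15; -0.38 to 0.0388). Same-numbered sham and SBR libraries did not deviate together (correlations of 0.01, -0.06 and -0.22), and same-numbered ileal and duodenal libraries of a group did so in some pairs and not in others (-0.14 to 0.45), so the numbers were not taken to pair them; with the replicate block 12 genes passed in the ileum and 8 in the difference, where *Ugt2a3*, *Acta1*, *Cutal*, *Nudt5* and *Gm34777* were not called, and *Apoa4* was -0.0826.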
